A study of Mus musculus with 6 samples.

Results

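The data described here are the 3 wild-type arrays of a series of 6 Affymetrix mouse expression arrays. They were chosen by the genotype given in the labels (wild type, replicates 1 to 3), and the other 3 arrays, of E2A-deficient cells, were not used and are not compared here. All 3 arrays hold RNA of sorted DN2 cells from fetal thymus of mice on the FVB background, with no treatment and no mutation named in the labels. Embryonic age, sex, the surface gate and whether embryos were pooled are not given in the sources used here. Nor is it said that the 3 samples came from separate animals, so the spread between them may be technical in part. Sex-linked transcripts differed between the 3 arrays, as described further on. On each array 45037 probe sets remained beside the 64 controls, and 34945 of them named 1 gene. For each of the 18193 genes 1 probe set was used, the brightest on average, and all 18193 are described. Taking the brightest makes a call depend on how many probe sets a gene has.

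DN2 cells are double-negative thymocytes, which carry neither CD4 nor CD8 and are recognised by CD44, the stem cell factor receptor Kit and the interleukin-2 receptor chain CD25. At this stage Notch ligands of the thymic epithelium drive the Notch1 receptor of the progenitor, interleukin-7 keeps the cell alive and dividing, and the choice between the T-cell lineage and other fates is being closed. The genes of the T-cell receptor are just starting to be rearranged, and most proteins of its signalling complex are made before a receptor exists.

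Values are the deposited linear intensities, in arbitrary units, given in the order of replicates 1, 2 and 3 wherever 3 values follow a gene. An intensity reflects how well a probe set hybridises as well as how much transcript there is, so a value or a percentile places a signal on the array and does not rank the transcripts of different genes. To mark signal that can be told from none, the 69 olfactory and vomeronasal receptor genes on the array were used, which thymocytes are not known to need. The level exceeded by 5% of them was 87.2, 79.7 and 87.5 on the 3 arrays, against receptor medians of 62.7, 60.4 and 62.4. A gene is called above background if it passed this level on all 3 arrays, mixed if on 1 or 2, and at background if on none. Of the 18193 genes 9176 were above background (50.4%), 1638 were mixed and 7379 were at background. The share was 35.3% of genes with 1 probe set and 65.8% of genes with several, and of the 5931 genes above background with several probe sets 2349 had only 1 that passed. At a stricter level, the 99th percentile of the receptor genes in place of the 95th, 5660 genes passed on all 3 arrays. Genes at background may still be transcribed, since weak probe sets and low levels cannot be told apart here. The mean intensity was over 92.4 for the upper 50% of genes, over 205 for the upper 25% and over 479 for the upper 10%.

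The level was checked on genes of unrelated organs, which had no part in setting it. Of 66 such genes 50 were at background, 4 were mixed and 12 were above, or 18.2%, and 1 passed the stricter level. Among them was the insulin gene Ins2 (114, 107 and 114). Only Mbp, a gene of myelin with other transcripts in blood cells, lay in the upper 25% (323, 281 and 344). The next highest was the keratin gene Krt10 (114, 139 and 148). A signal that passed the level only narrowly is therefore weak ground for presence, and such genes are kept apart here from those in the upper 25%. Counts of genes above background on single arrays were 9789, 10470 and 9705.

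**Figure D1:**
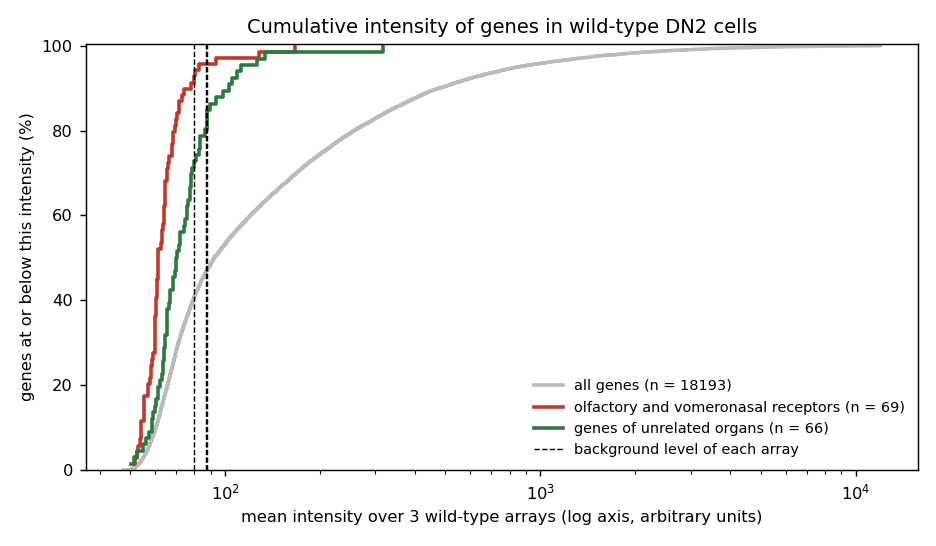
Cumulative share of genes (vertical axis, percent) at or below each mean intensity over the 3 wild-type arrays (horizontal axis, log scale, arbitrary units) for all 18193 genes, the 69 nose receptor genes and the 66 genes of unrelated organs. The dashed lines are the background levels of the arrays, 79.7 to 87.5, which 63 of the 69 nose receptor genes and 50 of the 66 organ genes stay under on every array.

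Of the genes set as DN2 markers, all but Ptcra were clearly above background, and Ptcra, given further on, was mixed. In bulk samples such as these, fewer cells with a transcript and less of it per cell cannot be told apart. Il2ra, which encodes CD25, gave 813, 1007 and 897 (mean 906 ± 97.5, SD, n = 3), at percentile 95.4 of all genes. Kit gave 272, 292 and 298 (percentile 82.1), Cd44 393, 386 and 434 and the heat-stable antigen gene Cd24a 2311, 2481 and 2161. Both probe sets of Il2ra and both of Kit were above background, although those of Kit carry a suffix for sequence shared between transcripts. Notch1 gave 2588, 2555 and 2113 (mean 2419 ± 265, SD, n = 3; percentile 98.7), and the CD3 chain Cd3g gave 1465, 1413 and 918 (mean 1265 ± 302). Cd3g was lowest on replicate 3, and Il2ra was highest on replicate 2.

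The promoters of these 4 stage genes are printed because they fall into both sequence classes described further on, beside the replication gene Mcm7 and the liver gene Alb as examples of a bright gene and one at background. Each is the 250 bases before the first start listed for the gene in RefSeq (build GRCm38.p6), 5′ to 3′ on the gene's strand, with every CpG in capitals.
Mcm7, chr5:138171884-138172133, minus strand: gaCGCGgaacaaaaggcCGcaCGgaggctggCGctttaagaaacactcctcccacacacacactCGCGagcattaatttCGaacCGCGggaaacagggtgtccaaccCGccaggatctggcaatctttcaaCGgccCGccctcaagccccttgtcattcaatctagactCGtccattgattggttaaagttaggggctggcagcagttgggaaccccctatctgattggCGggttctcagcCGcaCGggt
Kit, chr5:75574737-75574986, plus strand: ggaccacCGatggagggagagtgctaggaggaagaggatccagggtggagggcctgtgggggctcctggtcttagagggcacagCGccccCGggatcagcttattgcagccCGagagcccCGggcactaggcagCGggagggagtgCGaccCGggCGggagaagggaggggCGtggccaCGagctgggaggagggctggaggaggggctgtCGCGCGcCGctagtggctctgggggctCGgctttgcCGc
Notch1, chr2:26503823-26504072, minus strand: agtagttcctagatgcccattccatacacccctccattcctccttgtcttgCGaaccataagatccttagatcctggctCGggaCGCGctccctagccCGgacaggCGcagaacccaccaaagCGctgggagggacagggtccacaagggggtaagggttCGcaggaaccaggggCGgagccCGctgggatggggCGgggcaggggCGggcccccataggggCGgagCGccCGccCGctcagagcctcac
Il2ra, chr2:11642542-11642791, plus strand: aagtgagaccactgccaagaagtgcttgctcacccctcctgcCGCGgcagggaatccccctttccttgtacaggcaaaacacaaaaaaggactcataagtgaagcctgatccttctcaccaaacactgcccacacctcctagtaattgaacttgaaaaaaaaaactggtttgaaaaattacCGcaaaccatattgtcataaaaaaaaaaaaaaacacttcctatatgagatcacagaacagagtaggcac
Cd3g, chr9:44980432-44980681, minus strand: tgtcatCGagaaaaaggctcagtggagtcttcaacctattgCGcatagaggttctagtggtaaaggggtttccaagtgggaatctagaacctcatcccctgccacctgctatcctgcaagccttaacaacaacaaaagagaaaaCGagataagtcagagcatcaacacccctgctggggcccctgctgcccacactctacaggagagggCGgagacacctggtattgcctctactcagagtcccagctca
Alb, chr5:90460620-90460869, plus strand: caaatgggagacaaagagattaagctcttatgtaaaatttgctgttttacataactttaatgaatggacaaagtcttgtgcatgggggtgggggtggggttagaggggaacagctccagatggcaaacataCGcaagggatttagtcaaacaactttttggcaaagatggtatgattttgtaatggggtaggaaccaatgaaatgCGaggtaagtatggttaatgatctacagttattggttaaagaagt
In these stretches Mcm7 and Kit held 17 CpG each and Notch1 held 16, whereas Il2ra held 3, Cd3g 4 and Alb 2. The Cd3g promoter also held the E-box letters CACCTG, a form E proteins can bind, at 148 and at 35 bases before the start; a match of letters is not a binding site.

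Of 16 measured surface genes of early thymocytes, 13 were above background (81.2%, against 50.4% of all genes) and 11 lay in the upper 25%. They included the common leukocyte antigen Ptprc (1745, 1522 and 1464), Thy1 (365, 427 and 319), the interleukin-7 receptor chain Il7r (592, 416 and 601) and the costimulatory receptor Cd27 (220, 268 and 257). The progenitor antigen Cd93 gave 583, 590 and 640. Il7r was lowest on replicate 2, while Thy1 was highest there. Cd5, whose product tunes receptor signals, passed the level but stayed low (127, 98.7 and 131). Cd2 (59.4, 67.4 and 69.6), Cd28 (67.3, 69.4 and 66.7) and Ctla4 (68.0, 72.2 and 71.3) were at background.

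Coreceptors and surface genes of mature T cells were at or near background. The coreceptor gene Cd4 gave 83.4, 81.2 and 91.4 and Cd8a 85.8, 87.9 and 86.2, both mixed, and Cd8b1 (66.0, 70.9 and 69.7) was at background; 0 of the 5 probe sets of Cd8a and 0 of the 2 of Cd4 passed on all arrays. Among 14 coreceptor and mature T-cell surface genes 4 were above background (28.6%), 0 passed the stricter level and 0 lay in the upper 25%. The homing receptor Ccr7 (57.6, 66.1 and 71.1), the CD40 ligand Cd40lg (72.9, 74.5 and 72.6) and Cd226 (53.9, 55.6 and 55.6) were at background.

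**Figure D2:**
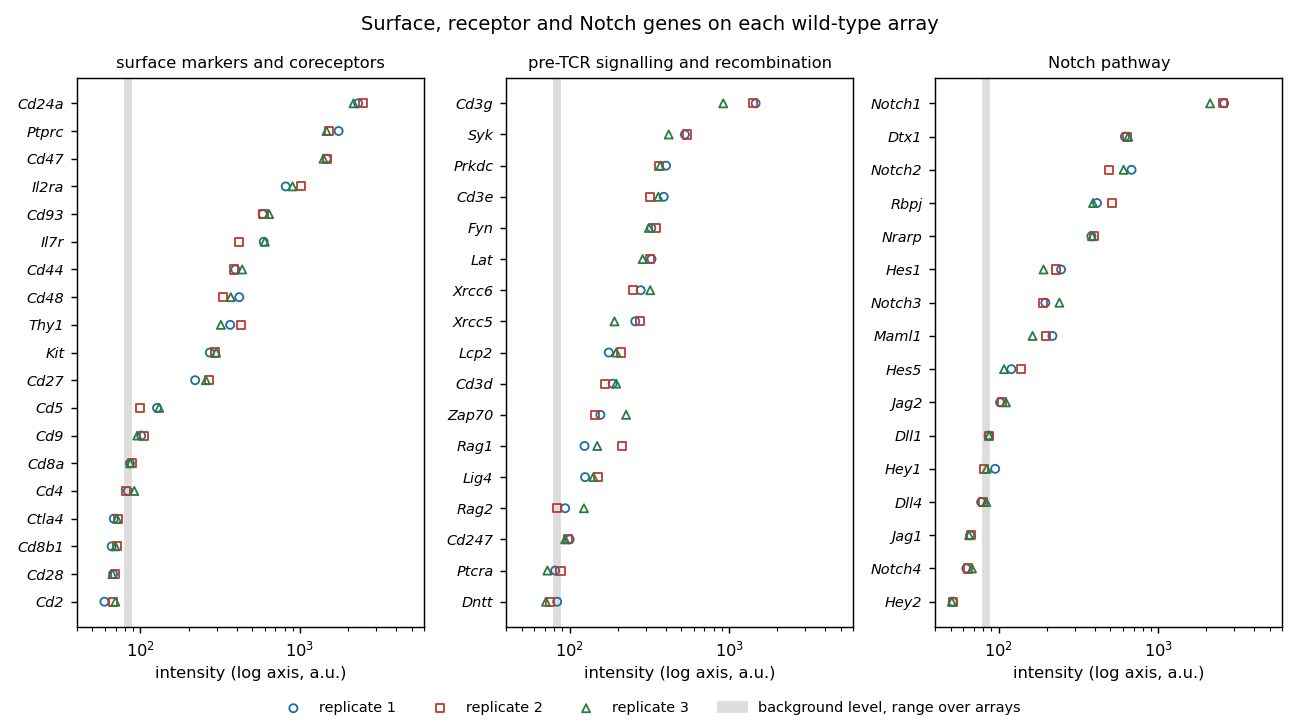
Intensity of surface markers, genes of pre-TCR signalling and recombination, and Notch pathway genes (horizontal axis, log scale, arbitrary units) on each wild-type array; 1 symbol per array, and the grey band spans the background levels 79.7 to 87.5. Il2ra, Cd24a, Cd3g and Notch1 lie far to the right of the band on all 3 arrays, and Cd4, Cd8a, Ptcra and Dntt lie on it or close to it.

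Regulators of the T-cell lineage had the highest median percentile of the 4 lists of transcription factors. Of 30 measured, 28 were above background (93.3%) and 23 lay in the upper 25%, with a median percentile of 89.0, against 63.5 for regulators of progenitors, 70.7 for general regulators and 38.8 for regulators of other fates. Myb, which early thymocytes need to survive and rearrange their receptors, gave 3890, 3323 and 3189 (percentile 99.3). The commitment factor Bcl11b gave 969, 1358 and 1174 (mean 1167 ± 194, SD, n = 3), and all 4 of its probe sets were above background. Sox4 gave 1421, 1358 and 1232 and the Ikaros gene Ikzf1 762, 878 and 951. Bcl11b and Ikzf1 were lowest on replicate 1, whereas Myb and Sox4 were highest there, so no array was highest for all of them.

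The Runx genes and their partner were read together: Runx1 gave 786, 682 and 621, Runx3 419, 410 and 345 and the shared subunit Cbfb 711, 763 and 866. E proteins bind E-boxes as dimers, and of these Tcf12, which encodes HEB, gave 827, 786 and 858 while Tcf3, which encodes E2A, gave 477, 421 and 414. The zinc-finger regulator Gata3 gave 280, 274 and 220 (percentile 80.1) and the repressor Gfi1 307, 226 and 292. The chromatin organiser Satb1 (673, 554 and 553), Ets1 (582, 665 and 510) and Ikzf2 (641, 584 and 735) were all over percentile 90. Other members passed the level with little to spare, namely Zfpm1 (143, 170 and 129), Tox (105, 126 and 117), Ets2 (88.8, 136 and 149) and Lef1 (89.5, 91.1 and 94.5). The 2 at background were Ikzf3 (84.2, 75.6 and 77.4), which marks later lymphoid stages, and Bcl6 (72.7, 72.9 and 73.3).

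Regulators known from progenitors were read at lower percentiles than those of the T-cell lineage. Of 30 measured, 24 were above background (80.0%, against 50.4% of all genes), and 8 lay in the upper 25%. Only 9 passed the stricter level, which 5660 of all 18193 genes passed. At both higher cuts the list was near the share of all genes. The stem-cell factor Lyl1 gave 1397, 1336 and 1289 (percentile 97.1), Etv6 722, 666 and 681, Mycn 581, 775 and 596, Nfe2 745, 569 and 474 and Bcl11a 564, 571 and 380. Nfe2 and Bcl11a were lowest on replicate 3. The homeobox gene Hhex gave 290, 376 and 295 and Erg 173, 255 and 173. Spi1, which encodes the myeloid and progenitor factor PU.1, gave 152, 136 and 131, Tal1 133, 140 and 129 and Mef2c 129, 113 and 118, all above the level but below the upper 25%. Lmo2, the bridging partner of Lyl1 and Tal1, was mixed (87.6, 81.5 and 81.3; 1 probe set), and the myeloid factor Cebpa was at background (59.1, 62.7 and 71.4).

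Genes of the fetal blood programme did not all read alike. The RNA-binding protein gene Igf2bp3 gave 1035, 750 and 802 (percentile 95.1) with 5 of 6 probe sets above background. Its relative Igf2bp1 gave 155, 153 and 121 and the chromatin protein gene Hmga2 131, 134 and 129. Lin28b, which blocks the maturation of let-7 microRNAs in fetal blood cells, was at background (53.6, 53.7 and 48.6; 1 probe set, percentile 0.7). Hox genes were mostly at background: 4 of 33 were above background (12.1%) and 27 at background. Those above were Hoxa5 (134, 126 and 148), Hoxa9 (188, 101 and 92.5), Hoxc9 (122, 125 and 132) and Hoxa7 (120, 110 and 106), and Hoxa9 was highest on replicate 1.

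**Figure D3:**
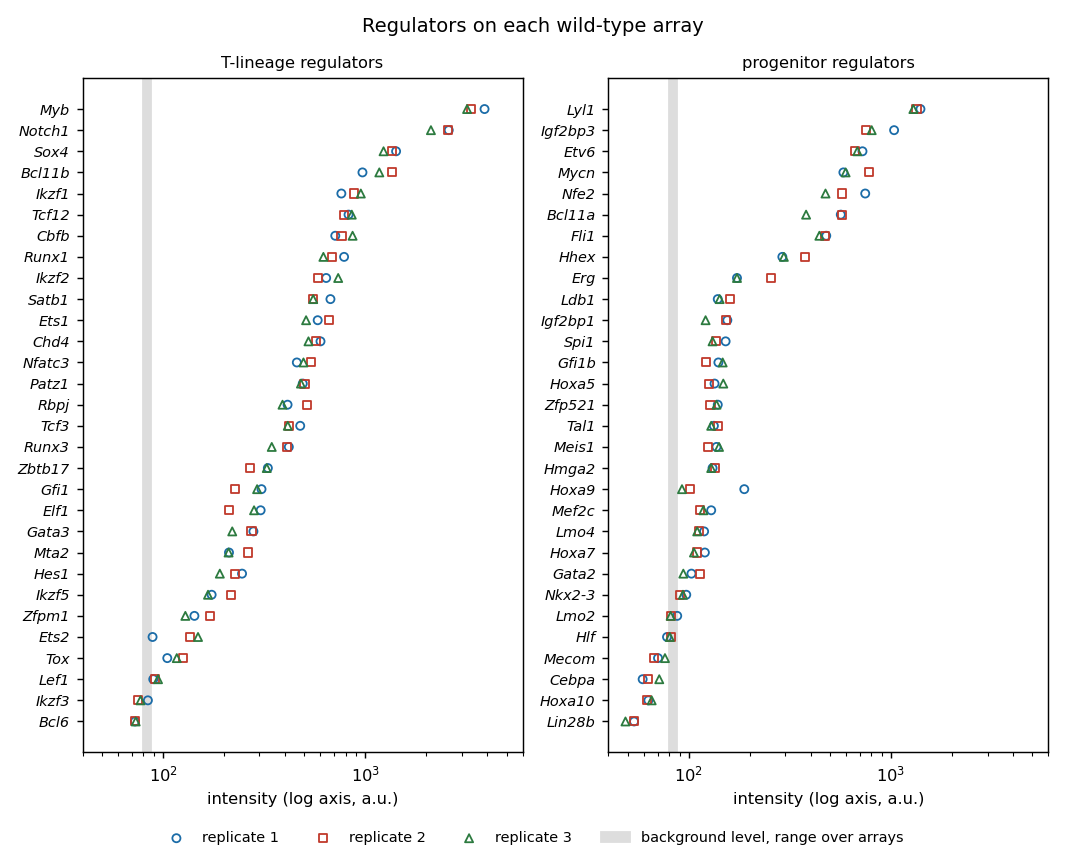
Intensity (horizontal axis, log scale, arbitrary units) of the 30 measured regulators of the T-cell lineage and the 30 of progenitors on each wild-type array; 1 symbol per array, and the grey band spans the background levels 79.7 to 87.5. In the first panel 28 genes lie right of the band, in the second 24, and more of the second group lie close to it.

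Factors of other fates were fewer: 10 of 27 were above background (37.0%), below the share of all genes, 3 lay in the upper 25% and 4 passed the stricter level. These 3 were the interferon regulator Irf1 (452, 448 and 436), Zbtb16, which encodes the innate-like lymphocyte factor PLZF (337, 250 and 242, 3 of 3 probe sets above), and the ligand-activated factor Ahr (223, 231 and 263). Sox13, a factor of gamma-delta T cells, gave 207, 183 and 199, and the E protein antagonist Id2 149, 178 and 159. At background were the B-lineage factors Pax5 (68.0, 70.3 and 77.3) and Ebf1 (62.0, 62.3 and 64.2, 0 of 5 probe sets), the NK factors Eomes (80.9, 68.5 and 79.8) and Tbx21 (62.0, 57.6 and 58.3), and Id3 (62.1, 62.3 and 62.2). Rora was mixed (76.5, 81.7 and 81.5) with 0 of 9 probe sets over the level on all arrays.

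Several families of developmental factors had no member above background. Of 8 Pax genes 0 were above background and 2 were mixed, of 12 Tbx genes 0 were above and 2 mixed, and of 8 Lhx genes 0 were above or mixed. In contrast 8 of 8 E2f genes, which drive entry into S phase, were above background, as were 31 of 39 Zbtb genes (79.5%). Of chromatin regulators, 15 of 18 histone deacetylases and sirtuins, 15 of 17 lysine demethylases, 7 of 9 chromodomain helicases and 10 of 12 Smarc genes passed. Broadly used factors were mostly present: Sp1 gave 2045, 2012 and 1765, Yy1 1353, 1509 and 1604 and the stress-response factor Atf4 1791, 1567 and 1195. The immediate-early genes Fos (83.4, 53.7 and 68.9), Fosb (66.9, 61.8 and 62.3), Jun (74.9, 78.0 and 72.2) and Junb (81.0, 74.3 and 75.5) were at background. This did not hold for every immediate-early gene, as Dusp1 (193, 264 and 257) was above background.

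In the Notch pathway a receptor binds a ligand on the neighbouring cell, is cut by ADAM10 and gamma-secretase, and its freed part acts with Rbpj and Mastermind on target genes. Of 29 genes of the receptors, ligands and processing steps, 18 were above background (62.1%) and 11 in the upper 25%. Beside Notch1, Notch2 gave 680, 494 and 606 and Notch3 196, 190 and 240, while Notch4 was at background (62.7, 64.6 and 68.0, 0 of 3 probe sets). For both Notch2 and Notch3 only 1 of 2 probe sets passed. Ligands were not clearly read: Dll4 (77.6, 79.3 and 83.5), Jag1 (66.2, 67.0 and 65.2) and Dll3 (64.3, 67.9 and 62.5) were at background, Dll1 was mixed (86.4, 86.7 and 86.9), and Jag2 passed the level narrowly (102, 105 and 111).

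Of the processing genes, Adam10 gave 836, 855 and 710, and the gamma-secretase subunits Psenen (888, 974 and 856), Aph1a (385, 342 and 256) and Psen2 (130, 131 and 115) were above background. The subunit gene Ncstn was at background (74.8, 72.3 and 80.2, 0 of 2 probe sets), though the enzyme is known to need it. The nuclear partner Rbpj gave 413, 515 and 390 and Maml1 217, 198 and 163, while Maml2 was at background (63.6, 62.3 and 62.3). The fringe genes Mfng (221, 197 and 203) and Rfng (238, 205 and 224), which sugar-coat the receptor, were above background and Lfng (73.6, 78.8 and 78.2) was not.

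Among 15 measured Notch targets, Il2ra included, 11 were above background (73.3%) and 8 in the upper 25%. Without probe sets of shared sequence the count was 7. The ubiquitin ligase gene Dtx1 gave 618, 635 and 648, the feedback inhibitor Nrarp 381, 393 and 385 and the repressor Hes1 246, 228 and 191. Dtx1 and Nrarp spread little over the arrays, but the bright probe set of Dtx1 is one of shared sequence, and its other probe set was at background (79.4, 71.7 and 69.1). Myc gave 393, 498 and 371 and Ccnd3, a D-type cyclin, 298, 315 and 284. Hes5 passed the level (120, 138 and 108), Hey1 and Heyl were mixed, and Hey2 was at background (51.5, 51.6 and 50.8). Ptcra, the invariant chain of the pre-TCR and a known Notch target, was mixed (81.2, 87.7 and 72.6), read by 1 probe set.

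Most of the signalling chain of the T-cell receptor was read. Of 34 genes 30 were above background (88.2%) and 15 in the upper 25%. At the stricter level 20 passed, Zap70 and Cd247 not among them. Beside Cd3g, the chains Cd3e (389, 319 and 360) and Cd3d (186, 167 and 196) were above background, and Cd247, the zeta chain, narrowly so (100, 98.3 and 93.8, 1 of 4 probe sets). The kinase gene Syk gave 528, 546 and 418, its relative Zap70 156, 145 and 226 and Fyn 325, 346 and 314. Zap70 was highest on replicate 3 and Syk lowest there. The adaptor genes Lat (326, 317 and 287), Fyb (498, 463 and 465) and Lcp2 (176, 209 and 196) were read, as were the ubiquitin ligases Cbl (521, 557 and 475) and Cblb (393, 276 and 229). Txk was at background (80.2, 69.5 and 87.2), and Malt1 (94.6, 99.3 and 73.3) and Grap2 (95.4, 84.4 and 80.2) were mixed.

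The machinery of receptor gene rearrangement was read at modest signal. The recombinase gene Rag1 gave 124, 212 and 149 (mean 162 ± 45.3, SD, n = 3) and Rag2 93.8, 82.9 and 123. Rag1 was highest on replicate 2 and Rag2 lowest there. The DNA end-joining genes Prkdc (402, 361 and 370), Xrcc6 (279, 251 and 320), Xrcc5 (258, 276 and 191) and Lig4 (125, 150 and 141) were above background. Dntt, whose product adds untemplated bases at the joints and which is known to be low before birth, was at background (83.6, 75.5 and 71.1, 0 of 3 probe sets). In all, 11 of 13 genes of this group passed (84.6%), and 5 passed the stricter level, Rag1 and Rag2 not among them.

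Cytokine receptors gave 25 of 37 genes above background (67.6%, against 50.4% of all genes). Of these 9 were in the upper 25% and 12 passed the stricter level, which 5660 of all 18193 genes passed. At both higher cuts the receptor list was near the share of all genes. The interleukin-25 receptor chain Il17rb was bright (1066, 885 and 857, percentile 95.5), and the thymic stromal lymphopoietin receptor Crlf2 gave 327, 299 and 330. The receptors for transforming growth factor beta, Tgfbr1 (412, 396 and 338) and Tgfbr2 (345, 348 and 245), and for interferon gamma, Ifngr1 (239, 220 and 217), were read. Flt3, a receptor of earlier progenitors, passed the level narrowly (99.6, 101 and 107), as did the macrophage receptor Csf1r (112, 87.3 and 104). At background were Il2rb (80.4, 77.4 and 77.5), Il9r (67.2, 66.7 and 72.1), Osmr (69.2, 60.2 and 67.8) and Lifr (74.4, 67.3 and 69.0).

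Chemokine and homing receptors were mostly at background or mixed, with 4 of 20 above background. The selectin ligand Selplg gave 788, 678 and 724, the receptor Cxcr4 309, 225 and 179 and the sphingosine receptor S1pr4 170, 176 and 166. Cxcr4 was highest on replicate 1. Ccr9, a receptor that guides progenitors to the thymus, was at background with 0 of 5 probe sets above (61.4, 64.6 and 65.4). Of 24 integrin chains 11 passed (45.8%), near the share of all genes, and 6 passed the stricter level. Itgal (625, 647 and 552), Itga4 (468, 369 and 445), Itgav (394, 405 and 327) and Itga2b (310, 403 and 384) were the brightest signals, and the myeloid chain Itgam was at background (59.4, 57.2 and 55.8).

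The JAK and STAT genes that carry cytokine signals were nearly all read, with 22 of 24 members of that list above background (91.7%). Jak2 gave 464, 476 and 540, the phosphatase genes Ptpn2 1532, 1429 and 1461 and Ptpn11 517, 624 and 634, and Stat3 338, 369 and 323. Of genes of the PI3K, mTOR and FOXO group 24 of 26 passed (92.3%), with the GTPase gene Rheb (1373, 1515 and 1454) and the translation repressor Eif4ebp1 (1092, 1002 and 605) at the top, and Eif4ebp1 lower on replicate 3. Pik3r3 (61.7, 59.7 and 54.6) and Pik3cb were at background. The RAS and MAP kinase group gave 21 of 25 (84.0%), led by Mapk14 (802, 992 and 941) and Map2k2 (599, 660 and 592).

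Pathways used widely in embryos were read in part. For Wnt signalling 12 of 30 genes passed, 7 of them at the stricter level: the core genes Ctnnb1 (1651, 1475 and 1344), which encodes beta-catenin, Csnk1a1 (2200, 2153 and 1905) and Dvl1 (1210, 1155 and 845) were bright, while the ligand genes Wnt1 (67.1, 62.5 and 61.5) and Wnt5a (65.5, 63.5 and 65.3) were at background. Of the TGF-beta, BMP and hedgehog list 16 of 26 passed (61.5%), led by Smad4 (923, 662 and 705) and the hedgehog receptor partner Smo (613, 740 and 681). The ligand genes Bmp2 (58.2, 56.3 and 53.5) and Bmp4 (62.9, 58.5 and 63.7) were at background.

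The cells gave strong signal for growth and division. All 27 measured replication genes and all 24 mitosis genes were above background, with median percentiles of 95.9 and 87.6. The helicase subunit Mcm7 (6264, 5842 and 4882), the licensing factor Cdt1 (3515, 3023 and 2940) and the nuclease Fen1 (3079, 2701 and 2742) were among the brightest of the list. The proliferation antigen Mki67 gave 1872, 1972 and 1950, the topoisomerase Top2a 2371, 2850 and 2315 and the anaphase activator Cdc20 2744, 3351 and 2711. Of G1 genes, Cdk6 (2445, 2617 and 2547), Ccnd2 (1799, 1573 and 1212) and Cdk4 (1193, 1325 and 982) were bright, and the inhibitors Cdkn2a (60.2, 57.1 and 62.8), Cdkn2b (73.2, 62.7 and 73.4) and Cdkn1c (82.9, 75.1 and 78.1) were at background. Cdkn1a, the p21 inhibitor, was nevertheless read (380, 335 and 343). Among 14 BCL2 family genes 10 passed (71.4%), 4 of them at the stricter level. The survival genes Mcl1 (646, 751 and 571), Bcl2 (319, 424 and 349) and Bcl2l1 (328, 290 and 267) were at the top. The death gene Bcl2l11 came next (227, 208 and 209), while the death gene Pmaip1 was at background (52.6, 54.8 and 63.7). Death genes were therefore found on both sides of the level.

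All 28 measured genes of the pentose phosphate path and nucleotide synthesis were above background (median percentile 92.8), led by the transketolase gene Tkt (8605, 6846 and 6341), and so were 24 of 26 genes of the tricarboxylic acid cycle (92.3%, median percentile 93.6), led by Mdh2 (6280, 5846 and 5316). Of 24 one-carbon and amino acid genes 20 passed (83.3%; 12 without probe sets of shared sequence), with the serine synthesis genes Phgdh (3870, 3422 and 2943) and Psat1 (2007, 2047 and 1737) and the polyamine enzyme gene Odc1 (2304, 2207 and 1844) foremost. Arg1 (60.3, 60.2 and 62.2) and Arg2 (59.4, 56.1 and 59.3) were at background.

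Of 29 genes of glycolysis and glucose uptake 21 passed (72.4%; 13 without probe sets of shared sequence), and isoenzymes of glycolysis differed in signal. Pgk1 (3875, 3322 and 3386), Aldoa (1506, 1342 and 1236), Pkm (1131, 1254 and 1200) and Ldha (1162, 1040 and 956) were bright, while the testis forms Pgk2 (55.8, 59.3 and 58.1) and Ldhc (60.6, 63.5 and 61.6) and the liver glucose carrier Slc2a2 (60.2, 56.0 and 60.1) were at background. The brain form Aldoc (131, 108 and 134) and the hexokinases Hk2 (297, 243 and 219) and Hk3 (102, 94.3 and 96.8) were nevertheless above background, and the muscle form Eno3 was mixed (80.6, 79.6 and 103). The carriers Slc2a1 (489, 281 and 335) and Slc2a3 (470, 439 and 363) were read, and the pyruvate dehydrogenase kinase gene Pdk4 was at background (55.9, 51.4 and 53.4). In lipid metabolism 24 of 30 genes passed (80.0%), led by Scd2 (2184, 2236 and 1951), Acly (2157, 2138 and 1986), Hadhb (1620, 1679 and 1673) and Hmgcs1 (1809, 1540 and 1384), whereas the fatty acid carrier Cd36 (60.0, 56.7 and 56.9) and the regulator Pparg (62.2, 72.4 and 70.3) were at background.

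**Figure D4:**
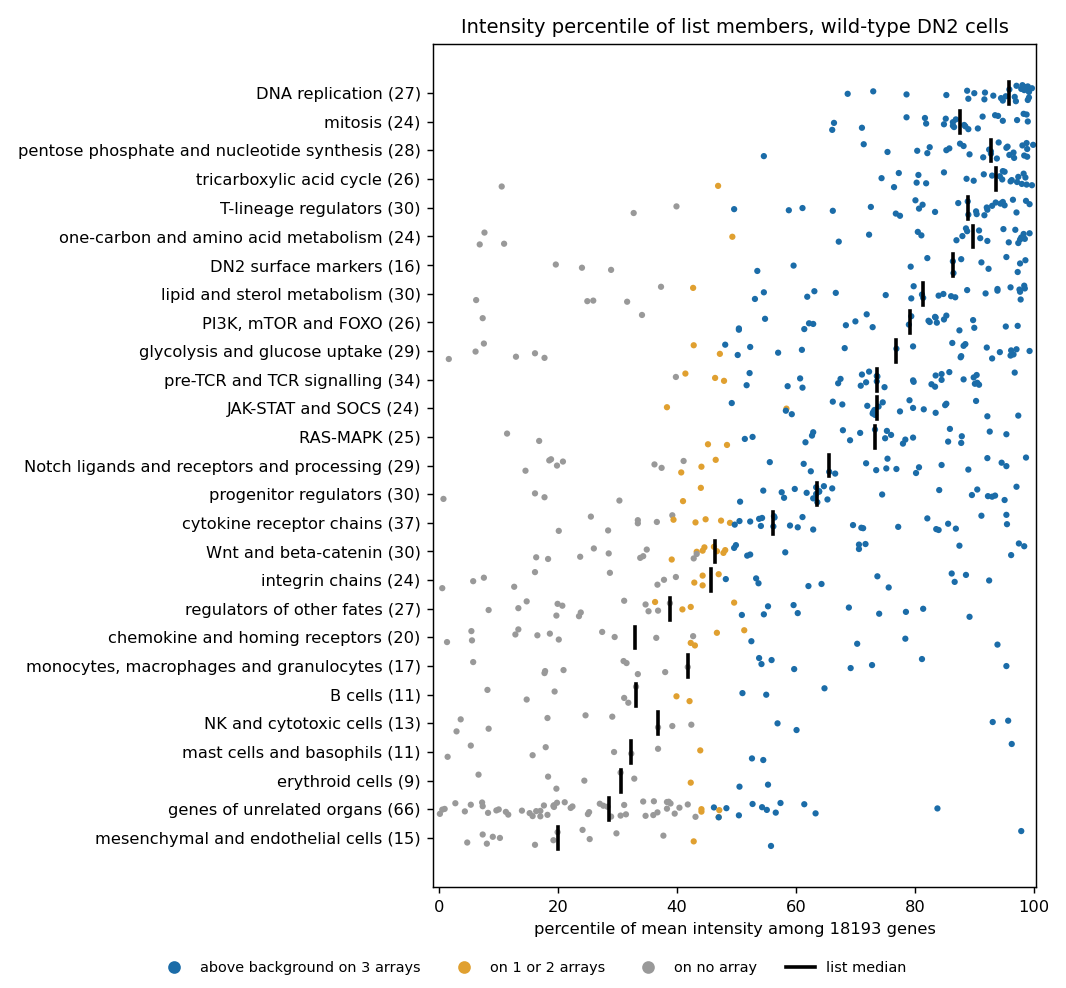
Percentile of mean intensity among 18193 genes (horizontal axis) for each measured member of 27 gene lists, coloured by whether the gene passed the background level on 3, on 1 or 2, or on no array; the black bar is the list median. Replication, nucleotide synthesis and the tricarboxylic acid cycle have medians of 95.9, 92.8 and 93.6, and the plotted lists of other cell types have medians between 19.9 and 41.8. Lists of other cells that are not plotted have medians from 29.5 (innate lymphoid) to 58.0 (stem and progenitor), with gamma-delta genes at 51.2.

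Ribosomal proteins were a large group among the brightest genes. Of the 100 genes with the highest mean, all at 4021 or more, 32 encoded ribosomal proteins. Outside this group the 20 brightest included Actb (11399, 10188 and 9607), the growth-related protein gene Tpt1 (10999, 9959 and 9086), the poly(A)-binding protein gene Pabpc1 (11126, 9207 and 8977), the chaperone gene Hspa8 (9916, 8910 and 8888) and the elongation factor Eef1a1 (9014, 9143 and 8187). All 73 mitochondrial ribosomal proteins were above background, as were 38 of 39 proteasome subunits and 32 of 34 complex I subunits. The proteasome exception was Psmb11 (65.5, 65.5 and 69.3), the subunit of cortical thymic epithelium. Of 70 cytochrome P450 genes 2 passed (2.86%) and of 44 keratins 7 (15.9%).

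Markers of the other cells that a fetal thymus or a sort could hold were read to check the label. At the stricter level 5660 of all 18193 genes passed. Of the 15 thymic epithelial, 9 erythroid, 11 B-cell and 13 dendritic-cell genes 0 passed it. Those that passed were 1 of 11 mast-cell, 1 of 8 platelet, 1 of 15 mesenchymal, 1 of 6 gamma-delta and 2 of 13 cytotoxic genes. Further, 2 of 10 innate lymphoid, 3 of 17 myeloid, 3 of 12 double-positive and 4 of 14 stem-cell genes passed. The 15 thymic epithelial genes gave 2 above background, Cldn3 (111, 101 and 101) and Epcam (101, 88.6 and 117), both narrowly, with 4 above when replicate 3 was left out and 0 without probe sets of shared sequence, 6 mixed and 7 at background, including Foxn1 (66.5, 69.2 and 67.0) and Krt14 (70.6, 72.9 and 68.0); their summed intensity was 1239, 1225 and 1230. Of 9 erythroid genes 2 passed narrowly, Gata1 (103, 109 and 103) and Epor, and the globin genes Hba-a1 (64.5, 65.2 and 64.6) and Hbb-y (59.0, 57.3 and 58.0) were at background (sums 700, 681 and 663). Of 11 B-cell genes 3 passed and 0 lay in the upper 25%, with Cd79b (126, 165 and 130) the brightest, followed by the surrogate light chain genes Igll1 (110, 97.9 and 104) and Vpreb1 (98.2, 89.8 and 95.8); Cd79a (73.9, 71.4 and 74.6) and Ms4a1 (58.1, 58.3 and 61.2) were at background (sums 884, 897 and 932). Of 13 dendritic-cell and MHC class II genes 3 passed, H2-Aa (167, 138 and 148), Bst2 (119, 110 and 99.2) and Flt3, and 0 lay in the upper 25% (5 passed without replicate 1; sums 1144, 1119 and 1162).

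A few genes known from other lineages were bright while the rest of their lists were not. Cpa3, a mast-cell carboxypeptidase, gave 1136, 1155 and 1021 (percentile 96.3), but the mast-cell genes Mcpt4 (64.7, 65.2 and 63.7), Ms4a2 (64.2, 62.3 and 63.7) and Fcer1a (52.8, 50.8 and 56.0) were at background; 3 of 11 passed in all, the others being Gata2 (103, 113 and 93.9) and Hdc (102, 98.6 and 93.9), with sums of 1882, 1886 and 1774. Mpo, the myeloid peroxidase, gave 1030, 829 and 861 (percentile 95.4), and 8 of 17 myeloid genes passed, among them Lyz1 (350, 244 and 224), Prtn3 (184, 151 and 156), Fcer1g (188, 177 and 194), Ctsg (125, 106 and 127), Lyz2 (109, 104 and 108), Fcgr3 (107, 107 and 92.9) and Csf1r. Itgam, Elane (85.6, 75.6 and 81.6) and S100a8 (67.6, 61.9 and 69.0) were at background (sums 2848, 2409 and 2506). The part of other cells in these signals was not tested.

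The same held for cytotoxic genes. Nkg7, a granule protein gene, gave 1038, 998 and 874 and the granzyme gene Gzma 707, 701 and 565, while Ncr1 (69.9, 67.5 and 67.1), Klrd1 (73.0, 71.1 and 67.7), Klrc1 (55.3, 53.8 and 55.8) and Prf1 (81.0, 78.7 and 85.4) were at background; 4 of 13 passed, with Fasl (113, 118 and 131) and Gzmb (111, 109 and 110) narrowly (sums 2595, 2516 and 2294). In the list of innate lymphoid cells 3 of 10 passed, Il17rb, Zbtb16 and Icos (94.2, 87.3 and 107), and Il4 (69.3, 64.8 and 68.4) was at background (sums 1978, 1691 and 1683). Of 6 measured gamma-delta genes Sox13, Cd163l1 (137, 136 and 167) and Maf (126, 124 and 115) passed (sums 682, 646 and 696). Of 12 genes of double-positive and mature alpha-beta cells 5 passed, Cd1d1 (895, 759 and 595), Rmnd5a (211, 225 and 184), Arpp21 (198, 230 and 190), Aqp11 (110, 125 and 104) and Klf2 (98.1, 84.8 and 101), with sums of 2034, 1937 and 1707.

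In the mesenchymal and endothelial list 2 of 15 genes passed (13.3%). Pdgfrb, the receptor of platelet-derived growth factor B, gave 1740, 1818 and 1654 (percentile 97.9; 2 of 2 probe sets above) and Acta2 96.8, 109 and 114. The stromal genes Col1a1 (64.6, 60.2 and 72.1), Col3a1 (62.7, 51.8 and 61.3), Dcn (79.4, 71.8 and 79.9), Pdgfra (70.1, 65.3 and 68.2) and Cdh5 (64.8, 62.8 and 68.3) were at background, and the sums were 2720, 2744 and 2634. Of 8 platelet genes Itga2b, Treml1 (98.0, 85.9 and 96.1) and Gp9 (95.6, 84.7 and 89.2) passed, and Pf4 was at background (69.7, 67.4 and 73.7); the sums were 824, 901 and 907. Stem and multipotent progenitor genes gave 8 of 14 (57.1%), with Angpt1 (669, 503 and 498), Cd48 (416, 331 and 368) and Kit in the upper 25%, Cd34 (148, 192 and 193), Procr (159, 171 and 146), Meis1 (137, 124 and 141), Hoxa9 and Flt3 below it, and Mecom (70.4, 67.6 and 76.2) at background (sums 2542, 2264 and 2289).

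Genes above background differed from genes at background in the sequence of their promoters. RefSeq promoters, 300 bases around the start, were found for 14367 of the 18193 genes. A promoter was called CpG-rich at a CpG observed over expected ratio of 0.6 or more and a GC content of 50% or more in any listed start. CpG-rich promoters belonged to 77.0% of genes above background (5786 of 7518), 54.0% of mixed genes and 31.5% of genes at background (1751 of 5567), against 57.3% of all genes. The share was 27.4% in the lowest 25% of genes by intensity, 43.4% between percentiles 25 and 50, 72.2% between 50 and 75, and 82.7% both between 75 and 90 and between 90 and 99. Up to percentile 90 it was higher in each range than in the one before.

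Lists differed in their share of CpG-rich promoters, and not always in step with their share of genes above background. CpG-rich promoters were found in 24 of 25 T-lineage regulators with a promoter, but in 12 of 30 genes of pre-TCR and TCR signalling. They were found in 3 of 11 DN2 surface markers, 1 of 14 myeloid markers and 3 of 50 genes of unrelated organs. Yet 30 of 34 signalling genes and 13 of 16 DN2 surface markers were above background. Wnt genes showed the reverse, with 19 of 20 promoters CpG-rich and 12 of 30 genes above background. Of the printed promoters, those of Mcm7, Kit and Notch1 were CpG-rich in the 300-base window, with ratios of 0.98, 0.62 and 0.66, and those of Il2ra, Cd3g and Alb were not, with 0.23, 0.18 and 0.27, although Il2ra and Cd3g were over percentile 95. Kit and Notch1 lie close to the threshold: in the 250 bases printed their ratios were 0.60 and 0.59, and neither window would pass a ratio of 0.75. Kit has 2 listed starts, and these ratios are those of the first. The letters CCGGAAG on either strand, which ETS factors can bind, occurred in 22.6% of promoters of genes above background, 5.35% of those at background and 15.0% of all. TATAAA on either strand went the other way, with 7.91%, 16.2% and 11.5%. The E-box letters CAGGTG on either strand occurred in 20.2%, 26.5% and 23.0%, and CCAAT on either strand in 42.8%, 41.0% and 42.0%. The letters CCGGAAG themselves hold a CpG, so their share is not independent of the CpG content.

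The 3 arrays were much alike, with Pearson correlations of log2 intensity across genes, which are not independent, of 0.986 to 0.990. Among genes above background 42 of 9176 (0.458%) were at least 2-fold apart between the highest and the lowest array, and 27 of the 42 were lowest on replicate 3. Trgv1, a variable segment of the T-cell receptor gamma locus, gave 153, 235 and 745, high on replicate 3 alone. The kinase subunit gene Pik3cd gave 178, 177 and 674, but its other probe set above background gave 135, 176 and 167 and did not follow. The asparagine synthetase gene Asns gave 609, 726 and 240 and its other probe set 431, 516 and 285, both low on replicate 3. H2-D1, a class I histocompatibility gene, gave 477, 1150 and 1353, and the gap junction gene Gja1 379, 871 and 727, both lowest on replicate 1. Of the 25 such genes with another probe set above background, 2 (H2-D1 and Gja1) had another that was also 2-fold apart. Leaving out replicate 3 or replicate 1 left 8 and 11 genes 2-fold apart, and leaving out replicate 2 left 34.

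Among genes that did not pass on every array, another 10 were 2-fold apart. Sex-linked transcripts led them: Xist, made from the inactive X chromosome, gave 3055, 4456 and 58.7, and the Y-linked genes Eif2s3y, Kdm5d and Uty gave 204, 58.0 and 343, 85.2, 53.5 and 162 and 117, 61.3 and 156. Xist was below the background level on replicate 3 and the Y-linked genes were below it on replicate 2, while replicate 1 had Xist, Eif2s3y and Uty over it. The heat-shock gene Hspa1b gave 75.8, 72.8 and 394, high on replicate 3 alone, while the related constitutive gene Hspa8 did not differ in that way. Signal ratios of the 3′ over the 5′ control probe sets were 9.61, 6.18 and 10.2 for beta-actin and 13.6, 10.5 and 13.5 for Gapdh. The part of this 3′ bias in these differences, and in the calls at background, was not tested.

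Smaller shifts between the arrays went with brightness. Of the 9176 genes above background 3946 were highest on replicate 1, 3037 on replicate 2 and 2193 on replicate 3, but of the 182 genes over percentile 99 these counts were 155, 26 and 1. Ribosomal proteins of the large subunit (18, 4 and 1 of 23) and complex I subunits (21, 10 and 1 of 32) shared this order. After quantile normalization, chosen after the data were seen, the counts over percentile 99 were 55, 50 and 77, those of the large ribosomal subunit 7, 11 and 5 and those of complex I 17, 9 and 6. Genes of mitosis were highest on replicate 2 in 16 of 24 cases, and in 12 of 24 after quantile normalization, against 2453 of all 9176. One-carbon and amino acid genes were lowest on replicate 3 in 15 of 20 cases, and in 13 of 20 after it, against 2946 of 9176. With 1 array per replicate none of these counts has a test.

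**Figure D5:**
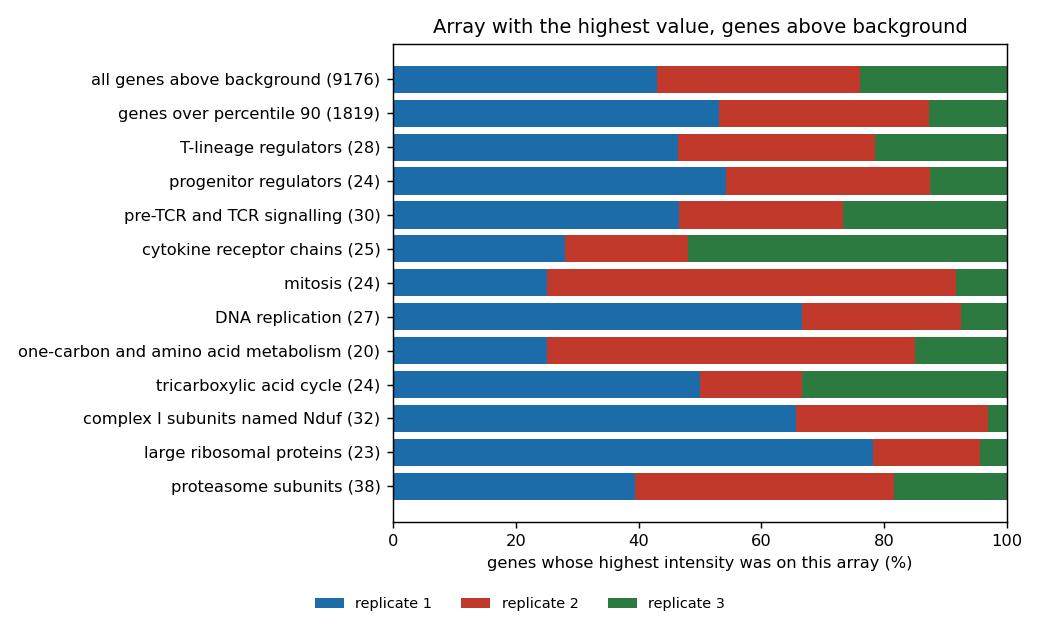
Share of genes above background (horizontal axis, percent) whose highest intensity fell on replicate 1, 2 or 3, for all such genes, for those over percentile 90 and for gene lists and families, with the number of genes in brackets. Replicate 1 holds the highest value for 18 of 23 large-subunit ribosomal proteins, and replicate 2 for 16 of 24 mitosis genes.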

How the data were processed

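RNA of the sorted cells went through a second in vitro transcription round for small inputs, per the labels' protocols; such targets read the 3′ end of transcripts best. Values are the intensities the authors deposited, on a linear scale after RMA, per the submitters' processing notes. The version and the step back to a linear scale are not given in the sources used here. From these, 64 control probe sets were left out. Gene symbols came from the platform annotation, updated by Entrez identifier for 34741 of 34945 probe sets that name 1 gene; 932 name several genes, 9160 name none, and 204 kept their old symbol. The other 3 arrays entered no value computed here, though the deposited values may have been normalized with them. Calls, percentiles and log2 ranges were computed with Python 3.11.15, pandas 2.3.3 and NumPy 2.4.6 and tested on simulated data. There is 1 group, so no test between groups was made. The number of arrays limits the precision.

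Members and gene lists were chosen with earlier results of these data known. Of 948 list genes 856 were measured. All members of the T-lineage, progenitor, DN2 surface, Notch, receptor signalling and recombination lists could be named. Of other lists and families it was the 4 brightest, of lists also the 4 dimmest, with any marker of other cells above background, the 20 brightest genes that are not ribosomal and the 20 most variable. Outside this rule, and chosen after their values were seen, were Cd4, Cd8a, Id2, Eomes, Crlf2, Tgfbr2, Ifngr1, Il2rb, Ccr9, Cdkn1a, Ldha, Aldoc, Hk2, Hk3, Eno3, Slc2a1, Slc2a3, Cd79a, Elane, Ncr1, Klrd1, Prf1, Col1a1, Pdgfra, Cdh5, Hspa1a, Hspa1b and the sex-linked genes.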

Additional observations from a re-analysis of the deposited data

Results flagged for a closer look

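Probe sets that name no gene in the annotation entered no result above, and some carried signal. Of 9160 such probe sets 1899 (20.7%) were over the background level on all 3 wild-type arrays, 84 of them with a mean over 1000 and the highest at 11639. Of 932 probe sets that name several genes 477 (51.2%) passed, 159 with a mean over 1000. They are given as signal outside the main measurement, and their identities were not analysed here.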

How the results depend on the processing

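The count of genes above background moved from 9176 to 5660 with the 99th percentile of the receptor genes as the level. It stayed within 1.5 times the reported count with the 90th percentile (10590), the upper quartile of all probe sets (6136), probe sets averaged per gene (8704), no probe sets of shared sequence (7760) and 1 array left out (9237 to 9584). Quantile normalization and equal medians cannot change it, since each call depends on the order within an array. Of 44 gene lists, the count of members above background moved by more than 1.5 times in 23 at the 99th percentile, 22 at the upper quartile, 10 without shared-sequence probe sets and 5 at the 90th percentile. At the 99th percentile 24 T-lineage regulators, 12 genes of Notch receptors, ligands and processing and 8 Notch targets passed. So did 18 genes of the JAK-STAT list, 18 of the PI3K group and 15 of the RAS and MAP kinase group. With 1 array left out the lists that moved were those of dendritic cells (5 against 3), thymic epithelium (4 against 2) and sex-linked genes (2 and 3 against 1). Without shared-sequence probe sets Dtx1, Bcl10 and Nhej1 were at background, Tcf12, Notch3, Psen2, Meis1, Hmgb2 and Nck1 were mixed, and Kit, Myb, Myc, Cbfb, Gata2, Hes6, Ldb1, Lmo4, Mta2, Nfatc3, Prkcq and Spen had no reading. The 42 genes at least 2-fold apart between arrays became 530 at 1.5-fold, 17 on log2(intensity + 50), 4 with probe sets averaged per gene, and 8 to 34 with 1 array left out. The share of CpG-rich promoters was 59.2% above and 20.1% at background with a CpG ratio of 0.75, and 81.6% and 40.1% with the 99th percentile. The cause of these shifts was not tested, except that a stricter level or ratio passes fewer genes by construction. Leaving out 1 array also has an effect by construction, since a gene then has to pass on fewer arrays. It favours more genes above background and fewer genes 2-fold apart. No paired analysis was possible because the data hold 1 group and no result comes from a test.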

Other observations

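Gene families not described above were also read on the wild-type arrays. Of 334 solute carrier genes 157 were above background (47.0%), near the share of all genes, and the highest signals were those of the mitochondrial carriers Slc25a5 (4004, 3946 and 3298), which exchanges ADP and ATP, and Slc25a3 (2888, 3667 and 3648), which imports phosphate. Of 37 Fox genes 14 passed, led by Foxp1 (868, 799 and 584) and Foxo3 (518, 478 and 436), and of 16 Klf genes 6, led by Klf13 (491, 485 and 488). Of 41 nuclear receptors 15 passed, and Rxrb (854, 812 and 796) and Nr2c2 (726, 684 and 765) were the members in the upper 25%. Foxp1 was lowest on replicate 3, while Klf13 hardly differed between arrays.

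Secreted factors and sensors of infection were mostly at background. Of 28 interleukin genes 4 passed, with Il16 (501, 510 and 543) the one in the upper 25% and Il18 (192, 181 and 188) the next. Of 30 chemokines 5 passed and of 11 toll-like receptors 1, Tlr9 (104, 106 and 102). Of 13 interferon-response genes 7 were above background (53.8%), near the 50.4% of all genes. At the stricter level 1 passed, against 5660 of all 18193 genes. Oas1a gave 229, 212 and 226, while Mx1 (65.1, 62.5 and 66.8) and Ifit1 (68.6, 65.9 and 64.2) were at background. Of 19 immediate-early and heat-shock genes 9 passed (47.4%), also near the share of all genes. Among them were Hsp90aa1 (4263, 3902 and 4004) and Hsph1 (534, 904 and 695), the latter highest on replicate 2. The inducible genes Hspa1a (62.0, 57.2 and 100) and Hspa1b were mixed and high on replicate 3 alone. Among 20 claudins, which form tight junctions in epithelia, 2 passed, Cldn2 (486, 674 and 614) and, narrowly, Cldn3 (111, 101 and 101). Of other epithelial genes, Foxn1 and Krt14 were at background and Epcam passed narrowly (101, 88.6 and 117).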
